A study of Arabidopsis thaliana with 3 samples.

Results

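The RPD3 class I histone deacetylase genes of Arabidopsis thaliana were examined as 6 loci, HDA6 (AT5G63110), HDA7 (AT5G35600), HDA9 (AT3G44680), HDA10 (AT3G44660), HDA17 (AT3G44490) and HDA19 (AT4G38130). They were taken by gene identity out of 27444 nuclear protein-coding genes, and all 6 were found in the gene table. The ChIP group held 2 HDA6-GFP samples, in which chromatin of 14-day-old Col-0 seedlings grown in long days was precipitated with an antibody against green fluorescent protein (GFP). The input group held 1 sample of the same plants. The label of that sample also lists the GFP antibody, and it was taken as input because its title says so. Every plant carried HDA6 fused to GFP and driven by the HDA6 promoter, so the DNA of HDA6 is present both at its own locus and in the transgene, in the ChIP and in the input alike. Whether the endogenous HDA6 gene was intact, how many lines were used and whether plants without the transgene were precipitated is not given in the sources used here. Each library combined DNA of at least 5 immunoprecipitations. The deposited lists hold positions with no height, count or p-value. Neither list separates replicates, so the values below have no replicate error and no test between ChIP and input was possible. Read depth is unknown.

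Histone deacetylases remove acetyl groups from lysines of histone tails, which closes chromatin and lowers transcription, and histone acetyltransferases do the reverse. The RPD3 class I enzymes are named after a yeast deacetylase and work in complexes with SIN3-like scaffolds, WD40 proteins of the MSI family and histone demethylases. HDA6 silences repeats, ribosomal RNA genes and transgenes together with DNA methylation, and also acts in flowering. HDA19 is a broadly expressed repressor that acts in development and stress responses and is recruited by TOPLESS corepressors. HDA9 acts in flowering, seed dormancy and leaf senescence. HDA7 is a little expressed gene that acts in gametophyte and embryo development. HDA10 and HDA17 are short genes closely related to HDA9. Their annotated lengths were 822 bp for HDA10 and 1121 bp for HDA17, against 3491 bp for HDA9.

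HDA6-GFP ChIP regions were found at 2 of the 6 genes, HDA6 and HDA19, and at none of HDA7, HDA9, HDA10 and HDA17. A gene counted when a region overlapped its body or the 1 kb on either side by at least 1 bp. Under the same rule 2348 of 27444 nuclear protein-coding genes, or 8.56% (95% Wilson interval 8.23 to 8.89%, counting error only), had a region. Leaving out HDA6, whose sequence is also that of the transgene, 1 of the other 5 genes had one. HDA6 and HDA19 lie in the chromosome arms, 13.6 and 13.9 Mb from the centromere midpoints of chromosomes 5 and 4, and among protein-coding genes of the arms, taken as all sequence more than 3 Mb from a midpoint, 7.04% had a region. The other 4 genes lie 2.07 to 2.23 Mb from the centromere midpoints of chromosomes 5 (HDA7) and 3 (HDA9, HDA10 and HDA17). Of protein-coding genes within 3 Mb of a midpoint 20.1% had a region. Of those 2 to 3 Mb away, a band chosen after the values were seen, 10.5% had one. In that band on the members' side of the centromere, the share was 6.6% on chromosome 3 (14 of 212) and 8.61% on chromosome 5 (13 of 151). Both arm genes thus had a region and the 4 genes nearer to centromeres had none, a contrast that was not tested. The map of the 6 loci shows both regions beside the input intervals.

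**Figure D1:**
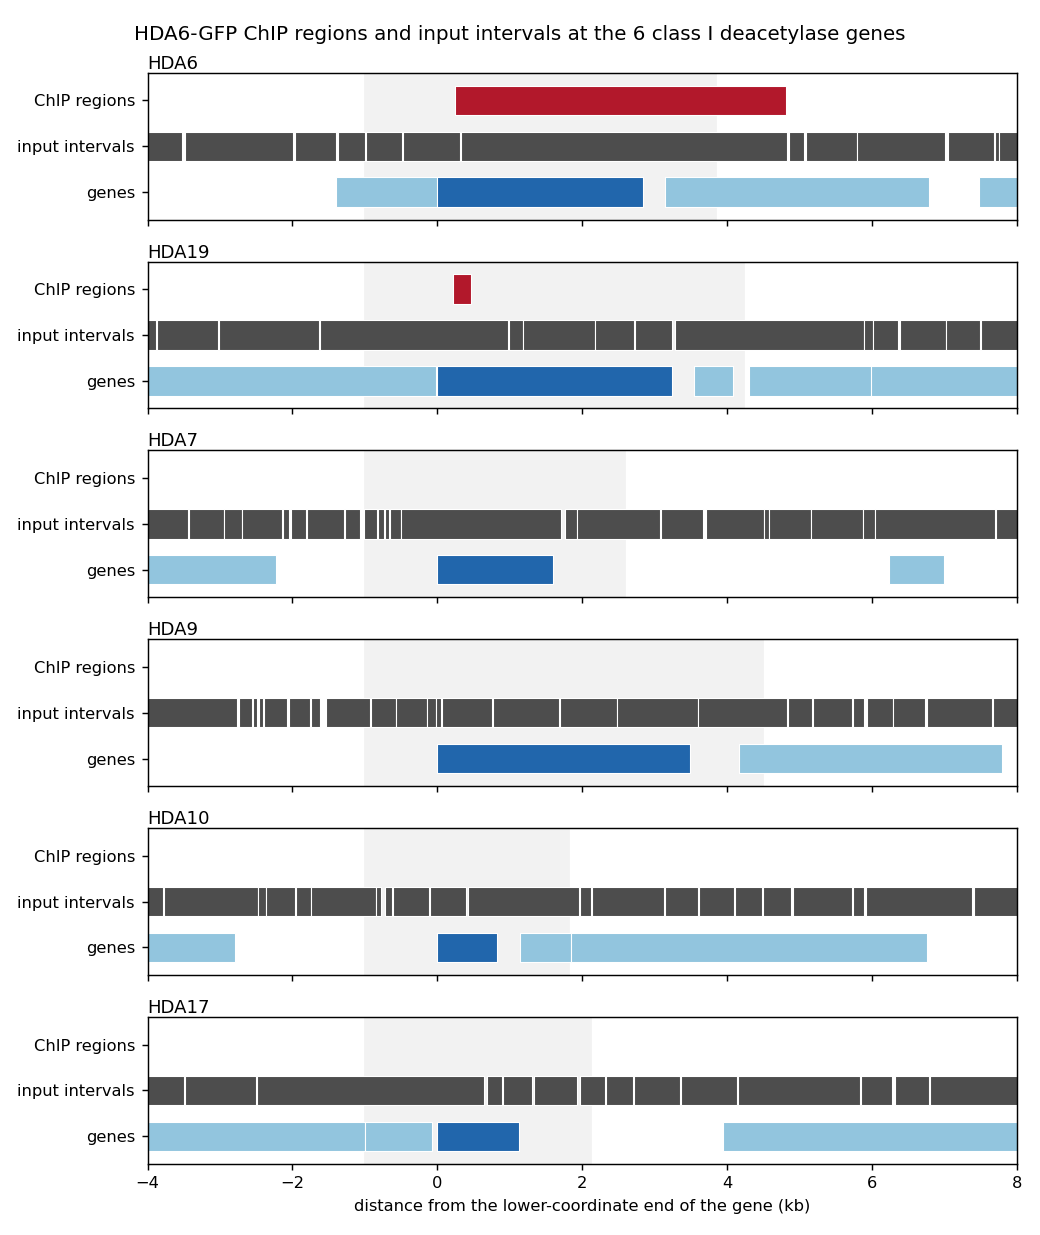
Positions of ChIP regions (red), input intervals (dark grey) and annotated genes (the named gene in dark blue, its neighbours in light blue) at the 6 genes, by distance in kb from the gene's lower-coordinate end. The grey band is the gene body with 1 kb on either side, and the white lines that separate neighbouring intervals are drawn wider than the gaps. A region of 4577 bp covers most of HDA6, a region of 238 bp lies inside HDA19, and the other 4 bands hold no ChIP region.

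The region at HDA6 lay on chromosome 5 from 25315745 to 25320321 (TAIR10) and was 4577 bp wide. It covered 2603 bp of the HDA6 gene body, or 91.6%, and left 239 bp uncovered at the lower-coordinate end of the gene. None of the 1 kb below the gene was covered, against 100% of the 1 kb above it. The region ran 1974 bp past the upper-coordinate end of HDA6 and over 1680 bp of the next gene, AT5G63120, or 46.1% of its body. The gene on the lower side, AT5G63100, which shares 28 bp with HDA6, had 0% of its body in the region, which started 211 bp after that gene ended. The region was thus asymmetric about HDA6, covering the gene and one side of it. The gene table gives no strand, so which side is the promoter was not assigned.

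In the input, HDA6 had 4 intervals, of 374, 506, 785 and 4493 bp. The widest lay from 25315838 to 25320330 and matched the ChIP region closely at both ends: its lower border differed by 93 bp and its upper border by 9 bp. ChIP region and input interval shared 97.8% of the bases that either covered. Among the 31 arm ChIP regions of at least 1000 bp, the region at HDA6 was the only one whose borders both lay within 100 bp of those of a single input interval. That held within 200 bp and within 300 bp too, and within 50 bp there were 0. These limits were chosen after the HDA6 values were seen. The next highest shared share among those 31 regions was 95.2%, and the median over the others was 39.7%. Over all 290 nuclear regions of at least 1000 bp, which include those near centromeres, 12 matched an input interval within 100 bp at both ends, and HDA6 ranked 6 by shared share. A segment of HDA6 and its upper flank was thus 1 region in the ChIP and 1 interval in the input, with nearly the same borders. An uncovered stretch of 25 bp bounded that input interval on its lower side, and input covered 99.2% of the window. Joined over gaps of up to 200 bp, the interval grew to 13525827 bp, and 25.7% of protein-coding genes had one at least as wide. The input interval was thus set apart from its neighbours only by short gaps. Extra DNA of the transgene and binding of HDA6-GFP to its own gene cannot be told apart at this locus, since every plant carried the transgene and the lists hold no read depth.

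**Figure D2:**
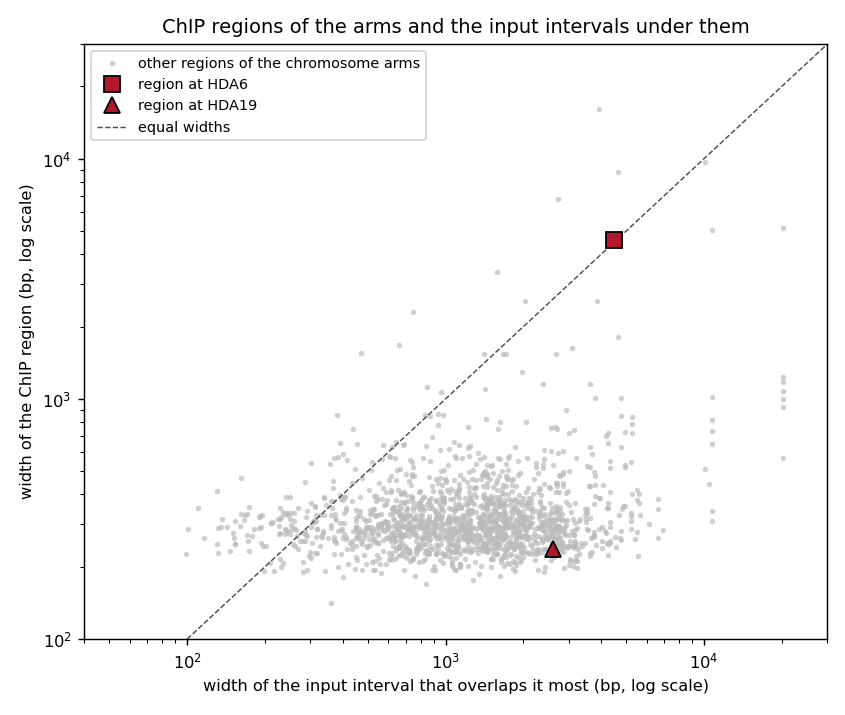
Width of each of the 1634 ChIP regions of the chromosome arms (vertical axis, bp, log scale) against the width of the input interval that overlaps it most (horizontal axis, bp, log scale), with the regions at HDA6 and HDA19 marked. The region at HDA6 (4577 bp in ChIP, 4493 bp in input) lies on the line of equal widths at the wide end of both, and the region at HDA19 (238 bp in ChIP, 2602 bp in input) lies far below that line.

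Few genes of the arms were covered to the same extent as HDA6. Of 24247 arm protein-coding genes, 22 (0.0907%) had at least 91.6% of the body in ChIP regions, HDA6 among them, and HDA6 was the longest of the 22. A region at least as wide as that of HDA6 lay in the window of 9 arm genes. That count includes HDA6 itself and its neighbours AT5G63100 and AT5G63120, whose windows hold the same region. By width the region ranked 7 of 1634 arm regions, whose median was 297.5 bp. Its input interval was wide as well: 796 of all protein-coding genes (2.9005%) had an input interval of at least 4493 bp in their window. Of those 796 genes, 176 (22.1%) had a ChIP region.

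Among the arm genes compared, the 5 most like HDA6 had narrower ChIP regions. Likeness was measured over the lists as the sum of the difference in the covered share of the gene body and the log2 ratio of the widest ChIP region, among arm genes with a symbol outside the first 100 kb of chromosome 2. Of the 9 arm genes with a region at least as wide as that of HDA6, HDA6 included, none of the others is among these 5. The narrower widths therefore cannot be read apart from this choice of genes. EPR1, an extensin-like proline-rich cell wall protein, had 97.1% of its body covered and a widest region of 2296 bp. EXT6, an extensin, had 80.5% covered and a widest region of 1541 bp. GER2, a germin-like protein, had 85.1% and 1016 bp. EDA34, a gene named for arrest of the embryo sac, had 56.4% and 1157 bp, and UBQ13, of the ubiquitin family, had 65.2% and 1004 bp. EPR1, the most alike of them, differed from HDA6 in the input, where the interval under its ChIP region was 748 bp wide and shared 31.0% of the bases, against 97.8% at HDA6.

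The region at HDA19 was of another kind. It lay on chromosome 4 from 17896497 to 17896734 and was 238 bp wide, below the arm median of 297.5 bp, and 13.8% of arm regions were no wider. It lay wholly inside the gene body, 219 bp from its lower-coordinate end and 2775 bp from its upper one, and covered 7.36% of the body of 3232 bp. Neither 1-kb flank held any ChIP base. The neighbour on the lower side, AT4G38120, ends 22 bp before HDA19 begins and lay 241 bp from the region, so the region also fell in the 1-kb flank of AT4G38120. In the input, HDA19 had 6 intervals, of 2602, 194, 985, 535, 516 and 2610 bp, and the ChIP region lay wholly within that of 2602 bp. This interval reached 1841 bp below the lower border of the ChIP region and 523 bp above its upper one, and the 2 shared 9.15% of their bases. Unlike at HDA6, the borders of the ChIP region were not those of an input interval. That was the usual case. Of nuclear ChIP regions, 60.7% lay wholly in 1 input interval and 5.22% matched one within 100 bp at both borders. An input interval at least as wide lay under 241 of the 1634 arm regions (14.7%).

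HDA9 had no ChIP region in its window. Its nearest ones lay 15611 bp above the gene and 16132 bp below it. The input split its window into 10 intervals of 73 to 1229 bp. None was wider than 1229 bp, the lowest such value of the 6 genes, and 88.2% of all protein-coding genes had an interval of that width or more in their window.

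HDA10 had no ChIP region either, although it had the nearest of the 4 genes without one. That region, 395 bp wide from 16209992 to 16210386 on chromosome 3, lay 4577 bp below the gene, in the annotated pseudogene AT3G44650, the next gene on that side. It was also the nearest one below HDA9. HDA10 was thus the gene nearest to the 1-kb limit from outside, whereas at HDA6 and HDA19 the region overlapped the gene body itself. The window of HDA10 held 6 input intervals of 56 to 1540 bp.

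HDA17 lay farthest from any ChIP region, at 61362 bp, and only 2.72% of protein-coding genes within 3 Mb of a centromere midpoint lay at least as far from one. Its window held 5 input intervals of 3141, 197, 406, 586 and 343 bp. The widest of these covered 57.6% of the gene body and was the second in width among the 6 genes, after that of HDA6. A wide input interval was therefore present at HDA17 without any ChIP region. HDA9, HDA10 and HDA17 share a stretch of 132.5 kb on chromosome 3, in which HDA10 lies 10.7 kb from HDA9 and 116.4 kb from HDA17. Within it 3 ChIP regions of 284 to 395 bp covered 1020 bp. These 3 genes share their surroundings and are not independent of each other. Reads of near-identical sequence could be placed at any of them or be left out, and the absence of regions there is uncertain to that extent. How reads with several matches were handled is not given in the sources used here, and the identity of the 3 sequences was not computed here.

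HDA7, on chromosome 5, had no ChIP region in its window, and the nearest lay 10592 bp above it in the annotated pseudogene AT5G35602. Its window held 7 input intervals, of 178, 84, 51, 155, 2205, 165 and 1151 bp. That of 2205 bp spanned 100% of the gene body. HDA7 was the only one of the 6 genes whose body lay in a single input interval.

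**Figure D3:**
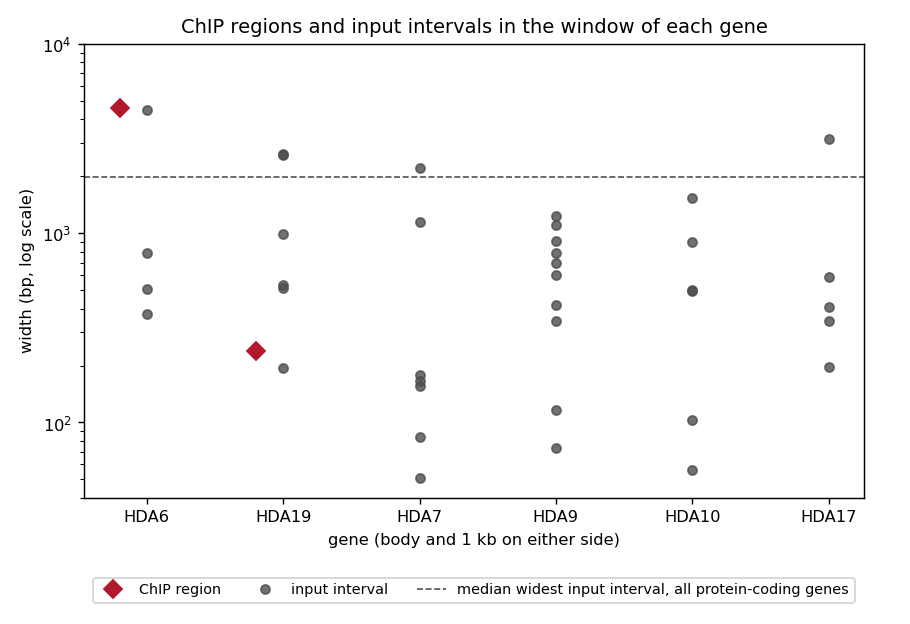
Widths (bp, log scale) of the ChIP regions (red diamonds) and of the input intervals (grey circles) in the window of each gene, with the median widest input interval of all protein-coding genes (1973 bp) as a dashed line. HDA6, HDA17, HDA19 and HDA7 have an input interval above the line and HDA10 and HDA9 do not, whereas a ChIP region is present at HDA6 and HDA19 only.

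Input covered nearly all of every window, and the 2 genes with a ChIP region had the highest window coverage by a small margin. Over the gene body alone HDA7, which had no region, came first at 100%, against 99.1% at HDA6 and 99.0% at HDA19. The input covered 99.2% of the window of HDA6 and 98.7% of that of HDA19. It covered 98.6% of the window of HDA9, 97.0% of that of HDA7, 96.3% of that of HDA10 and 95.7% of that of HDA17. The median over all protein-coding genes was 98.3%. The uncovered bases added up to 37 bp at HDA6 and 67 bp at HDA19, and to 76 to 134 bp at the other 4 genes. The part of this difference in the presence of a region was not tested. The widest input intervals, in contrast, overlapped between the groups, at 4493 and 2610 bp for HDA6 and HDA19 against 3141, 2205, 1540 and 1229 bp for HDA17, HDA7, HDA10 and HDA9. As the input list has no depth, neither coverage nor width measures how much input DNA was sequenced at a gene.

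Set against genes of the same compartment, the distances of the genes without a region were spread widely. The share of genes within 3 Mb of a centromere midpoint that lay as near to a region or nearer was 39.7% for HDA10, 60.5% for HDA7, 71.2% for HDA9 and 97.3% for HDA17. The median distance was 6997 bp in that compartment and 22939 bp in the arms. In the band 2 to 3 Mb from a midpoint, chosen after the values were seen, it was 12234 bp. On the members' side of that band it was 15687.5 bp on chromosome 3 and 10592 bp on chromosome 5. Against the median of their side, HDA7 (10592 bp) and HDA9 (15611 bp) were typical. HDA10 (4577 bp) lay nearer and HDA17 (61362 bp) farther. A region overlapping the gene body itself, as at HDA6 and HDA19, was present at 4.69% of arm genes.

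**Figure D4:**
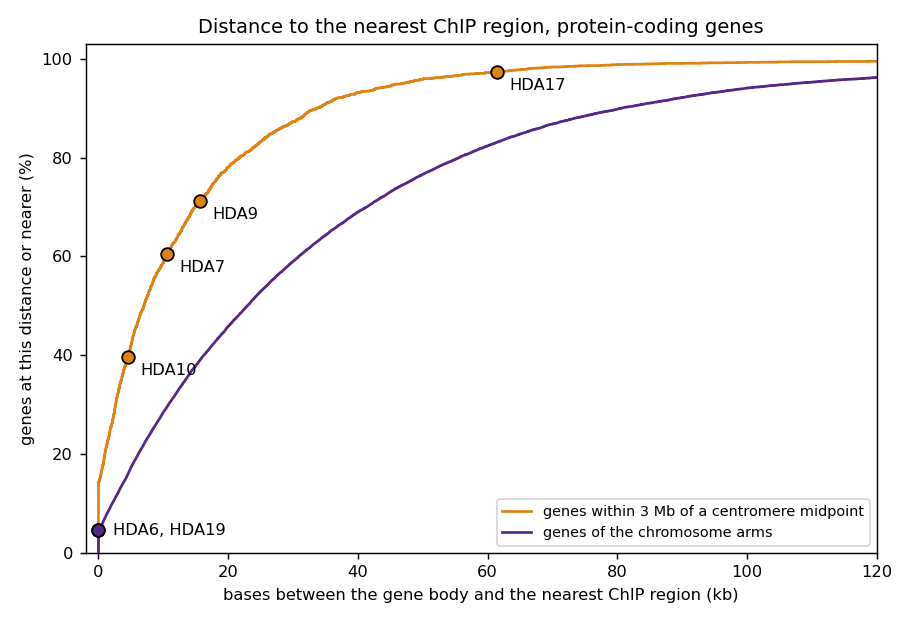
Cumulative share of protein-coding genes (vertical axis, %) by the distance between the gene body and the nearest ChIP region (horizontal axis, kb), for genes within 3 Mb of a centromere midpoint and genes of the arms, with the 6 genes marked on the curve of their compartment. HDA6 and HDA19 lie at 0, HDA10, HDA7 and HDA9 at 4577 to 15611 bp, and HDA17 at 61362 bp near the top of its curve.

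The surroundings of the 6 genes differed in number and kind of ChIP regions. Within 100 kb of HDA19 there were 9 regions of 238 to 568 bp, its own included, against a median of 3 for arm genes, and 5.30% of arm genes had at least as many. All 9 overlapped protein-coding genes. They lay at ELI3-1 and ELI3-2, cinnamyl alcohol dehydrogenases induced by elicitors, at DOF4.7, a Dof transcription factor, at CSLD4, a cellulose synthase-like protein, and at AT4G38340, a NIN-like protein. Within 100 kb of HDA6 there were 2, its own and one of 194 bp at HCA2, another Dof factor. On the other side of HDA6 the next region lay 132043 bp away. Among arm genes 42.5% had as few regions or fewer, so HDA6 was not unusual in this number, whereas HDA19 lay in a stretch with many.

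Around HDA7 there were 13 regions of 239 to 573 bp within 100 kb, against a median of 11 for genes within 3 Mb of a centromere midpoint. Of these, 10 overlapped annotated pseudogenes, a class that commonly holds transposon genes, and 3 overlapped protein-coding genes. HDA9 and HDA10 had the same 4 regions within 100 kb, and HDA17 had 3, of which 2 were shared with them. For genes 2 to 3 Mb from a centromere midpoint the median was 7. On the members' side of the centromere it was 6 on chromosome 3 and 7 on chromosome 5, where HDA7 lies. Among the genes next to these 4 on either side, only AT3G44650 beside HDA10 had a region. PAA1, a proteasome subunit gene beside HDA7, was 14416 bp from the nearest.

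**Figure D5:**
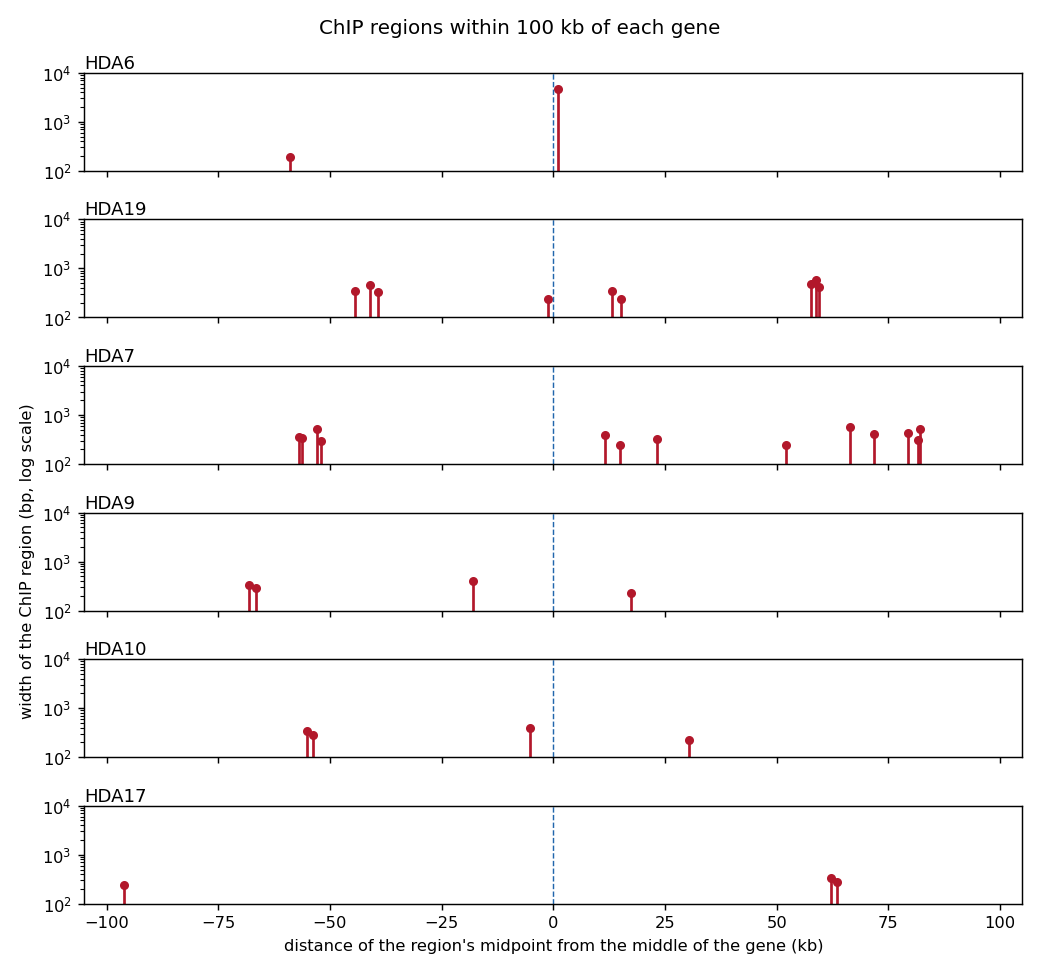
ChIP regions within 100 kb of the middle of each gene (dashed line), placed by the distance of their midpoints (kb) and drawn to the height of their width (bp, log scale). HDA19 has 9 and HDA7 has 13 regions, HDA6 has 2 including its own of 4577 bp, HDA9 and HDA10 share 4, and HDA17 has 3, none nearer than 61362 bp.

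Under the 1-kb rule, other genes of histone acetylation and of deacetylase complexes had ChIP regions about as often as protein-coding genes in general. None of the other RPD3/HDA1 genes (HDA2, HDA5, HDA8, HDA14, HDA15 and HDA18, 0 of 6), of the plant-specific HD2 deacetylases (0 of 4), of the sirtuins SRT1 and SRT2, which depend on NAD (0 of 2), and of the histone acetyltransferases (0 of 12) had one. Of 22 genes for partners of RPD3 complexes, 3 had a region (13.6%), which with the 24 enzyme genes makes 3 of 46 (6.52%), where the share over all protein-coding genes was 8.56%. All but 2 of the 46 lie in the arms, where the share was 7.04%. The likeness rests on this rule. With the gene body alone 1 of 46 had a region, against 1591 of 27444 protein-coding genes. With regions of at least 337 bp only, 0 of 46 had one, against 881 of 27444. These differences were not tested. LDL1, a histone demethylase, had regions of 319 bp (chromosome 1, 23266047 to 23266365) and 267 bp (23267075 to 23267341), the first wholly in its body and the second with 55.1% of its width there. MSI5, a WD40 protein related to FVE, had one of 249 bp (chromosome 4, 14558477 to 14558725), 201 bp outside its body and in no annotated gene. AT1G19330, entered as a complex partner, had one of 280 bp (chromosome 1, 6679639 to 6679918), 504 bp from its body and inside its neighbour AT1G19320. The SIN3-like scaffolds SNL1 to SNL6, FVE and FLD of the autonomous flowering pathway, MET1, the maintenance DNA methyltransferase, and the TOPLESS gene TPL with TPR1 and TPR4 had none.

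By medians, the 46 genes lay somewhat farther from ChIP regions than all protein-coding genes and had somewhat wider input intervals. These differences were not tested. The median distance to the nearest region was 24070 bp for the 46 genes and 7585 bp for the 6 class I genes, against 20302 bp for all protein-coding genes. Of the 6, 2 had a region and 4 lie within 3 Mb of a centromere midpoint, where the median distance was 6997 bp. Their median therefore mixes compartments and is not alike to that of all genes. The median widest input interval was 2455 bp for the 46 genes and 2408 bp for the 6, against 1973 bp for all. Outside HDA6, the widest region at any gene of the class I and acetylation lists was that of 319 bp at LDL1, whose widest input interval measured 5346 bp.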

How the data were processed

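The authors deposited a ChIP list and an input list on TAIR10, as start and end positions in bp with no value per region. The submitters' processing notes name Bowtie and SICER. Versions, settings, filters and how replicates were combined are not given there. Each list was taken as pooled over its group. Starts were converted to count from 1. There were 7477 nuclear ChIP regions and 169984 nuclear input intervals.

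Gene names and overlaps came from the RefSeq table of TAIR10.1, whose nuclear coordinates were treated as TAIR10 coordinates because its last gene base and the last listed base differed by at most 2855 bp on each chromosome. No gene coordinates are printed. Of the 46 other genes, 43 have their name in the table and 3 are given by locus. Centromere midpoints were round values, such as 14 Mb on chromosome 3.

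No test was run, because neither list has replicates or values, and shares of all protein-coding genes stand beside the counts. The members and lists were chosen with earlier results of these data known. The naming rule took the 6 members, list genes with a region, genes overlapping or next to a member, and the 5 arm genes most like HDA6. Genes of the 100-kb surroundings and list genes without a region were named after their values were seen. Alternatives changed the flank, the overlap, the regions kept, the joining of regions and the centromere distance. The interval code (Python 3.11.15, numpy 2.4.6, scipy 1.17.1) was tested on simulated data, with 0 errors in 2000 windows. Sequence, motif and protein comparisons were not run here.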

Additional observations from a re-analysis of the deposited data

How the results depend on the processing

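HDA6 and HDA19 kept a ChIP region with the gene body alone, with flanks of 500 bp and 2 kb and with a stricter overlap, 50% of the region's width. Keeping only regions at or above the median width of 337 bp left 1 member, HDA6, against 881 of 27444 protein-coding genes. It left 0 of the 46 acetylation genes, and a distance of 11437 bp for HDA19. Without HDA6, an alternative added after seeing the data, 1 member had a region. With the gene body alone 1 of the 46 acetylation genes had one, LDL1, against 1591 of 27444 protein-coding genes. With a 2-kb flank HOS15 was added, which made 4 of 46 against 3168 of 27444. Joining regions over gaps of up to 200 or 600 bp left the widths at HDA6 and HDA19 and the covered share of HDA6 as they were. Joining input intervals over gaps of up to 200 bp merged the interval at HDA6 into one of 13525827 bp, since uncovered stretches in the input are short, so widths of input intervals rest on gaps of a few bp (25 bp at the lower border of that at HDA6). Within 2 Mb of the centromere midpoint, added after seeing the data, lay 0 members in place of 4. No paired analysis was possible because neither list separates replicates. For the same reason no replicate could be left out. With no depth in either list, the absence of a region at HDA7, HDA9, HDA10 and HDA17 does not show absence of HDA6-GFP there.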

Other observations

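Over all protein-coding genes, the share with a ChIP region varied little with the widest input interval in the window. With genes split into 5 groups of like size by that width, it was 8.22% in the group with the narrowest intervals (278 to 1410 bp), 8.29%, 7.88% and 8.89% in the next groups, and 9.51% in the group with the widest (2809 bp and more), which holds HDA6 and HDA17. Of the 3619 genes whose widest interval was at least that of HDA17, 10.3% had a region, against 22.1% of the 796 genes at or above that of HDA6. HOS15, a WD40 protein that acts with HDA9, had its nearest ChIP region 1346 bp from the body, just outside the 1-kb flank.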
